A study of Mus musculus with 18 samples.

Results

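Splenocyte libraries of mice given LPPC/MP, alone or followed by LPPC/MP/CD28, were set against the untreated and LPPC/mp/CD152 libraries that were rich in lymphocyte transcripts. All 3 libraries of mice given LPPC/mp (LM) and all 6 of mice given LPPC/mp/CD28 (CD28) formed the first set, and are called the 9. The second set, called the 4, was chosen by a measured value. It held the Naive (N) and LPPC/mp/CD152 (CD152) libraries in which Cd3e, a chain of the T cell receptor complex, exceeded 40 FPKM, namely N 1, N 2, CD152 2 and CD152 5. The comparison thus used 13 of the 18 libraries of the series. FPKM is the number of fragments per kilobase of gene and per fixed number of fragments sequenced, so levels of different genes can be set side by side. Since Cd3e chose the 4, differences between the 9 and the 4 are described below without a test, and tests were kept to groups formed by the labels alone.

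All mice were labelled as female C57BL/6J, aged 4 to 6 weeks when obtained. The N mice had no treatment. LPPC is a liposome coated with PEG and PEI that adsorbs proteins, and MP is membrane protein prepared from antigen-loaded dendritic cells. LM mice received 2 injections of LPPC/MP and were sampled in week 3. CD28 and CD152 mice received these injections too, and then 1 or 2 modulations with LPPC/MP that also carried an antibody to CD28 or to CD152, the other name of CTLA4. They were sampled in weeks 4 to 5, and the labels do not tell libraries of 1 modulation from those of 2. LM and CD28 therefore differ in dose number and week as well as in the antibody. The tissue was labelled spleen and the cells splenocytes, while the protocol text attached to the samples describes a melanoma tumor. The sources used here do not state that each library came from a separate animal, so p-values measure the spread between libraries, which may be technical.

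The spleen holds mostly B and T lymphocytes, with red pulp macrophages that clear aged red cells, monocytes, granulocytes, dendritic cells and, in mice, red cell precursors. T cells signal through CD3 and the costimulatory receptor CD28, and CTLA4 competes for the ligands of CD28. Macrophages take up particles through scavenger and Fc receptors, digest them in lysosomes, and on activation release chemokines, cytokines, prostaglandins and nitric oxide. Osteopontin, encoded by Spp1, is a secreted protein that macrophages can produce in large amounts.

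The markers separated both sets without overlap. Cd3e (GRCm38, chromosome 9: 44998743 to 45009590, minus strand) was at 68.8 FPKM in N 1, 59.1 in N 2, 55.5 in CD152 2 and 55.8 in CD152 5, and between 6.93 and 15.6 in the 9, with a median of 10.9. The lowest library inside the rule was CD152 2, at 55.5 FPKM, and the highest outside it among N and CD152 was CD152 6, at 5.58 FPKM, so no library lay near the threshold. Cd79a (chromosome 7: 24897381 to 24902197, plus strand), which encodes a signalling chain of the B cell receptor, was at 518, 403, 371 and 368 FPKM in N 1, N 2, CD152 2 and CD152 5, against 64.0 to 107 with a median of 80.6 in the 9. Both lymphocyte markers were thus present in the 9, with mean differences of -2.45 and -2.29 in log2(FPKM + 0.5).

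Spp1 (chromosome 5: 104435118 to 104441050, plus strand) ran the other way and had the largest difference of all 11455 genes examined. It was at 0.316 FPKM in N 1, 0.210 in N 2, 0.246 in CD152 2 and 0.310 in CD152 5. In the 9 it was between 6178 and 6966, with a median of 6463. Itgam (chromosome 7: 128062640 to 128118491, plus strand), the CD11b integrin chain of myeloid cells, was at 13.3, 10.0, 9.90 and 10.5 FPKM in the 4 and between 90.1 and 103 in the 9. A second gene model, Gm49368, overlaps Itgam, so the split of reads between both is uncertain. It was between 7.27 and 9.63 FPKM in the 4 and between 67.8 and 77.7 in the 9. The other 5 N and CD152 libraries, N 3 and CD152 1, 3, 4 and 6, had Cd3e between 0.843 and 5.58 FPKM, Spp1 between 831 and 943 and Itgam between 22.0 and 24.1.

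**Figure D1:**
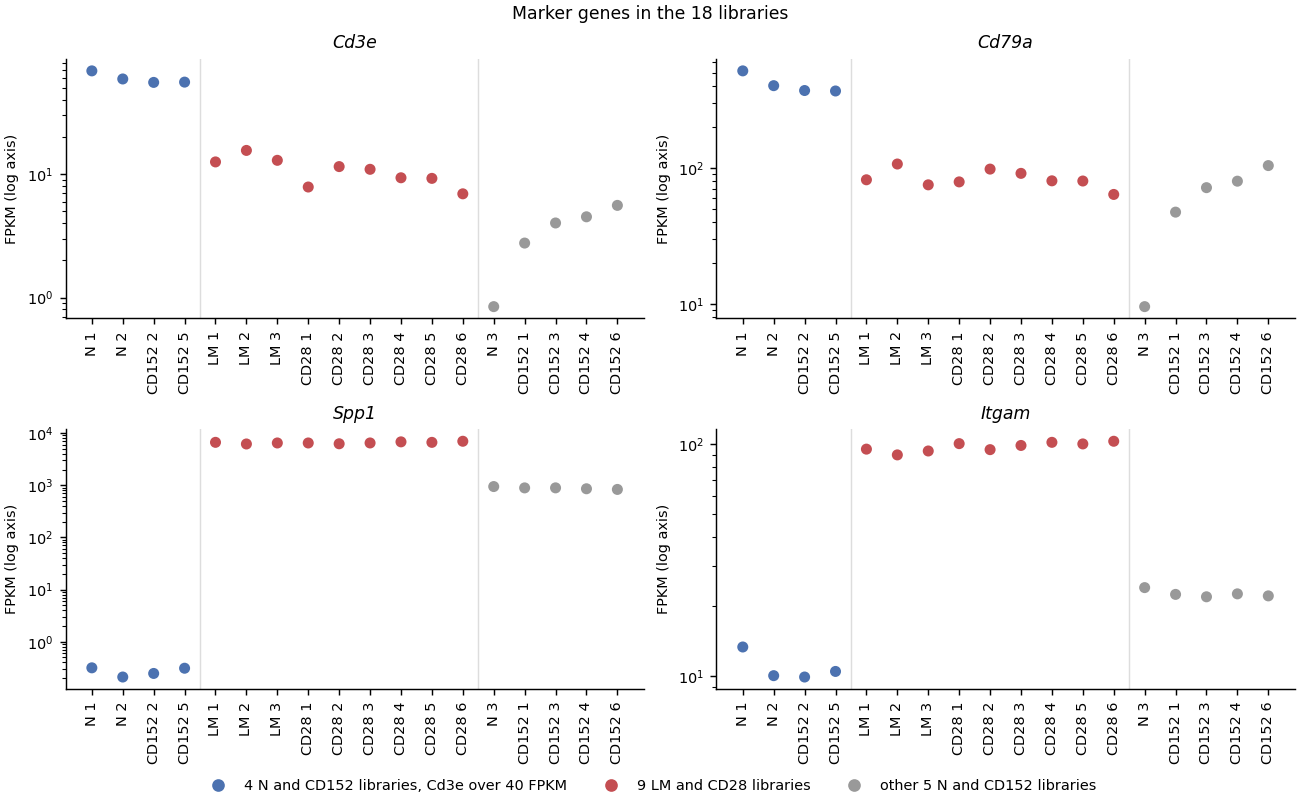
FPKM of Cd3e, Cd79a, Spp1 and Itgam on log axes in each of the 18 libraries: the 4 reference libraries, the 9 LM and CD28 libraries and the other 5 N and CD152 libraries. In the 9, Cd3e lay between 6.93 and 15.6 FPKM and Spp1 between 6178 and 6966, and neither overlapped the 4.

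An estimated 5.21 to 7.92 gigabases were aligned per library, and 1 library of the 4 stood apart. Over the 3165 genes above 10 FPKM in every library, the SD of the log2 ratio between 2 libraries was 0.12 to 0.20 within the 9 and 0.12 to 0.14 among N 2, CD152 2 and CD152 5. N 1 differed from these 3 by 0.50 to 0.51, and the 9 from the 4 by 0.77 to 0.91. Hemoglobin genes held 0.671% of all FPKM in N 1, against 18.4% in N 2, 16.9% in CD152 2 and 17.3% in CD152 5, and 0.379% to 1.85% in the 9. Results on red cell precursors, cell division and granules are therefore given with and without N 1.

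Transcripts of the sex chromosomes moved with the comparison. Eif2s3y of the Y chromosome was listed at 0 FPKM in each of the 4 and was between 31.0 and 36.8 in the 9 and between 36.5 and 43.0 in the other 5. Ddx3y was listed at 0 in the 4 as well, and lay between 11.9 and 14.2 in the 9. Xist, which is made from an inactive X chromosome, was at 55.4, 48.1, 59.9 and 58.4 FPKM in the 4 and between 4.83 and 7.20 in the 9. The label female thus matched the sex-linked transcripts of the 4 and not those of the 9. The 9 held both Y-linked RNA and Xist. Sex-linked transcripts and the other differences between the 9 and the 4 followed the same libraries and cannot be told apart, and their part in the results was not tested.

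The 9 and the 4 differed over most of the expressed genome, with a longer tail on the high side. All 9 lay above all 4 for 3697 genes, 32.3% of the 11455 coding genes that averaged 0.5 FPKM or more, and all 9 lay below all 4 for 4291 genes, 37.5%. The other 3467 genes overlapped. Of the higher genes, 1687 differed by over 2-fold and 99 by over 16-fold on the scale of log2(FPKM + 0.5). Of the lower genes, 2032 differed by over 2-fold and 0 by over 16-fold. The median difference over all genes was -0.10 on that scale, and rescaling each library to the same sum moved it to 0.08. With that rescaling 4094 genes lay above and 3501 below, so that 53.9% of the genes without overlap were higher in place of 46.3%. Without N 1, 9025 genes did not overlap in place of 7988. These shares are the background for the gene lists below. Since the rule used this contrast, nothing is read from them.

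**Figure D2:**
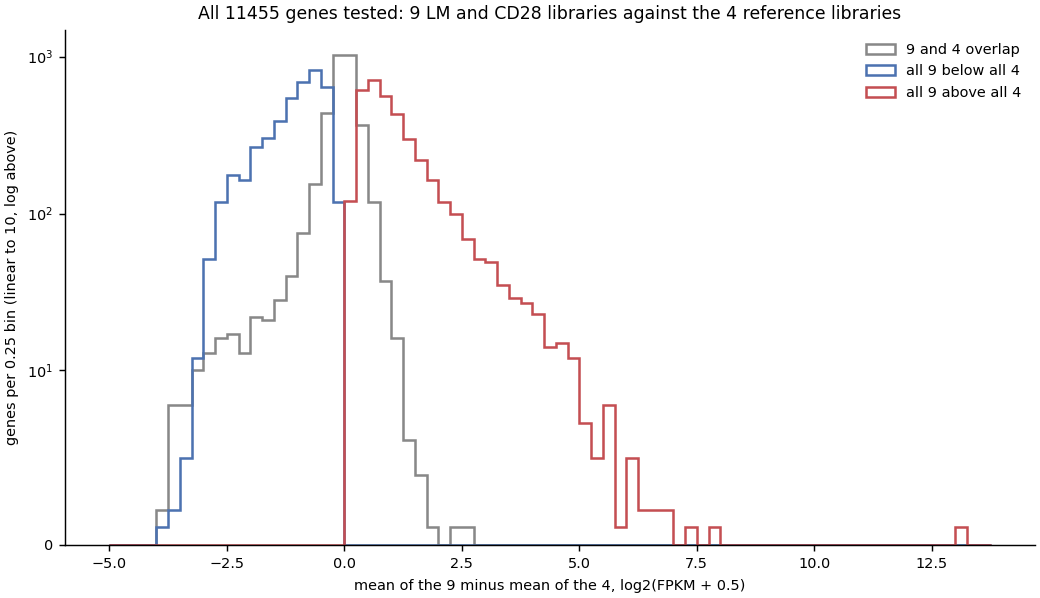
Number of genes (linear to 10, log above) by the mean of the 9 minus the mean of the 4 in log2(FPKM + 0.5), in bins of 0.25, for genes whose 9 and 4 values overlap, lie all below or lie all above. 0 genes below lay past -4, while 99 genes above lay past 4, with Spp1 alone at 13.05.

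The contrast that the labels define, the mean of LM and CD28 minus the mean of N and CD152 over all 18 libraries, was tested with limma. It called 5109 of 11455 genes at an adjusted p under 0.05, 2020 higher (17.6%) and 3089 lower (27.0%), with 700 of the higher and 276 of the lower calls over 2-fold. The higher share of the calls was 39.5% on FPKM, 49.3% after rescaling to the same sum and 53.1% after scaling by the median of ratios, so the balance of directions depends on the scale. N and CD152 each held libraries with Cd3e above and below the threshold, and the spread within these groups entered every such test. This contrast reuses all libraries of the comparison above, both the 9 and the 4. Its values stand beside that comparison, not as further evidence for it. The shares of all genes called, 17.6% higher and 27.0% lower, are the background for calls in the gene lists below.

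Most genes of lymphocyte identity were lower in the 9. Of 20 genes of T cell receptor signalling, all 20 lay below the 4, with a median difference of -2.41 against -0.10 over all genes. This list holds Cd3e, which chose the 4, so its count follows in part from the rule and is a description only. Among 16 B cell genes, 15 lay below and 1 above, with a median of -2.59. All 14 genes of natural killer and cytotoxic cells lay below, with a median of -2.62, and so did all 10 lymphoid transcription factors, with a median of -2.34. In the labelled contrast limma called 0 of the 20 T cell genes and 0 of the 16 B cell genes, and 0 of either list had an unadjusted p under 0.05, against 5950 of all genes. Against N 1 alone the medians were -2.90 for T cell genes, -2.84 for B cell genes and -3.16 for cytotoxic genes. In bulk RNA, fewer cells of a type and less RNA per cell cannot be told apart.

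CD4 and CD8 chains, the coreceptors of helper and killer T cells, were both low in the 9. Cd4 was at 35.3, 33.5, 32.5 and 33.1 FPKM in N 1, N 2, CD152 2 and CD152 5, and between 4.71 and 8.69 in the 9, with a median of 6.17. Cd8a was at 41.7 FPKM in N 1 and at 15.4, 16.3 and 16.2 in the other 3 of the 4, and between 2.11 and 4.42 in the 9. N 1 thus held the highest Cd8a of the 4, and neither gene overlapped between the sets. Il7r, the receptor for the survival factor interleukin 7, had the largest difference of the list, at 26.2 to 51.3 FPKM in the 4 and 3.07 to 5.43 in the 9. Tcf7, a transcription factor of naive T cells, was at 84.1 to 185 FPKM in the 4 and 12.5 to 24.8 in the 9.

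The targets of both antibodies behaved differently from each other. Cd28 was at 14.7, 14.1, 14.1 and 15.0 FPKM in the 4 and between 2.47 and 4.61 in the 9, a difference of -1.89. Ctla4, the inhibitory receptor found on activated and regulatory T cells, overlapped: it was at 4.00, 4.48, 5.11 and 5.30 FPKM in the 4 and between 3.14 and 4.81 in the 9, a difference of -0.22. Foxp3, the defining factor of regulatory T cells, did not overlap, at 3.91 to 4.97 FPKM in the 4 and 1.24 to 1.98 in the 9. Of 8 genes of regulatory T cells and checkpoints 6 lay below the 4, and Ctla4 and Pdcd1, the PD-1 receptor, were the 2 that overlapped. In the labelled contrast neither Cd28 (log2 fold change -0.55 ± 0.51 SE, limma adjusted p = 0.39) nor Ctla4 (0.73 ± 0.37, adjusted p = 0.13) passed.

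Ligands of these and related receptors were lower except for PD-L1. Icosl was at 40.4 to 54.7 FPKM in the 4 and 4.94 to 8.77 in the 9. Cd86, a ligand shared by CD28 and CTLA4, was at 16.7, 12.8, 11.98 and 11.99 FPKM in the 4 and between 2.29 and 4.34 in the 9, and Cd80, the other shared ligand, was at 1.85 to 2.66 and 1.08 to 1.57. Pdcd1lg2, which encodes PD-L2, was at 3.57 to 4.51 FPKM in the 4 and 0.428 to 0.802 in the 9. Cd274, which encodes PD-L1, was the 1 of 5 ligands above the 4, at 18.04, 12.5, 12.9 and 11.9 FPKM there and between 18.4 and 21.8 in the 9. It was higher in the labelled contrast (1.83 ± 0.48, limma adjusted p = 0.0057), and it lay between 1.48 and 1.98 FPKM in the other 5 libraries. In N 1 it came within 0.14 of the mean of the 9 on the log2 scale.

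B cell genes shared the pattern of Cd79a. Cd22, an inhibitory receptor of B cells, was at 151, 124, 128 and 108 FPKM in the 4 and between 13 and 20.5 in the 9. Bank1, a scaffold of B cell receptor signalling, was at 88.6 to 117 FPKM and 9.86 to 15.8. Ms4a1, the CD20 antigen, had a difference of -2.53. The exception among 16 genes was Cd72, at 101, 77.1, 77.6 and 75.9 FPKM in the 4, between 105 and 112 in the 9 and between 123 and 130 in the other 5.

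Antibody transcripts were lower in the 9 as well, but not against every library of the 4. Ighd, the constant region of IgD on mature naive B cells, was at 439, 145, 419 and 419 FPKM in N 1, N 2, CD152 2 and CD152 5 and between 19.1 and 93.3 in the 9. Ighm, the constant region of IgM, was at 1914 FPKM in N 1, at 4753, 4187 and 4280 in the other 3 and between 1025 and 1757 in the 9. Igkc, the kappa light chain, was at 2662 in N 1, at 7241, 6531 and 6561 in the other 3 and between 1809 and 2915 in the 9, so N 1 lay inside the range of the 9 for Igkc. These 3 were named after their values were seen, and constant region genes can share reads with related segments. Of 8 plasma cell genes 3 lay below the 4, 2 above and 3 overlapped. Jchain, which joins IgM and IgA subunits, was at 152 FPKM in N 1, at 656 to 733 in the other 3 and between 168 and 262 in the 9. Sdc1, a surface marker of plasma cells that other cells make as well, was higher, at 2.26 to 5.50 FPKM in the 4 and 9.92 to 13.3 in the 9 (labelled contrast 1.31 ± 0.12, limma adjusted p = 3.2e-07).

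Cytotoxic genes included 4 of the 12 largest downward differences among genes whose 9 and 4 values did not overlap. Gzma, a granule protease of killer cells, was at 67.4, 66.0, 60.4 and 64.2 FPKM in the 4 and between 2.80 and 6.02 in the 9, a difference of -3.72. Ncr1, an activating receptor of natural killer cells, was at 16.3, 19.0, 18.1 and 21.9 FPKM in the 4 and between 0.738 and 1.96 in the 9. Prf1, the pore-forming perforin, was at 13.4 to 15.6 FPKM and 0.909 to 1.39, and Klrk1, the NKG2D receptor, at 13.1 to 27.6 and 0.922 to 1.77. Gzma and Ncr1 lay lower in the 9 than the median of the other 5 libraries, which was 16.5 and 2.73 FPKM. In the labelled contrast 4 of the 14 genes passed, all lower, among them Gzma (-2.30 ± 0.58, limma adjusted p = 0.0047) and Ncr1 (-1.88 ± 0.62, adjusted p = 0.021). This count was near the share of all genes called lower, 27.0%.

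Antigen presentation by MHC class II and dendritic cell genes were low too. All 10 class II genes lay below the 4, with a median difference of -2.39. Ciita, the master activator of class II genes, was at 52.9, 37.5, 36.5 and 37.3 FPKM in the 4 and between 4.10 and 6.61 in the 9. H2-Ob, a chaperone chain found mainly in B cells, was at 68.4 to 158 FPKM and 10.3 to 17.2. H2-Aa, an antigen-presenting chain, was at 1314 FPKM in N 1, at 530 to 766 in the other 3 and between 138 and 256 in the 9. All 9 dendritic cell genes lay below, with a median of -1.81, and Siglech, a receptor of plasmacytoid dendritic cells, was at 6.77 to 9.99 FPKM in the 4 and 0.650 to 2.69 in the 9. In the labelled contrast limma called 0 of the 19 genes of both lists, with 1 at an unadjusted p under 0.05. Ets1 and Ikzf3, transcription factors of lymphocytes, were at 162 to 222 and 77.1 to 102 FPKM in the 4 and at 18.8 to 30.7 and 8.77 to 12.9 in the 9.

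**Figure D3:**
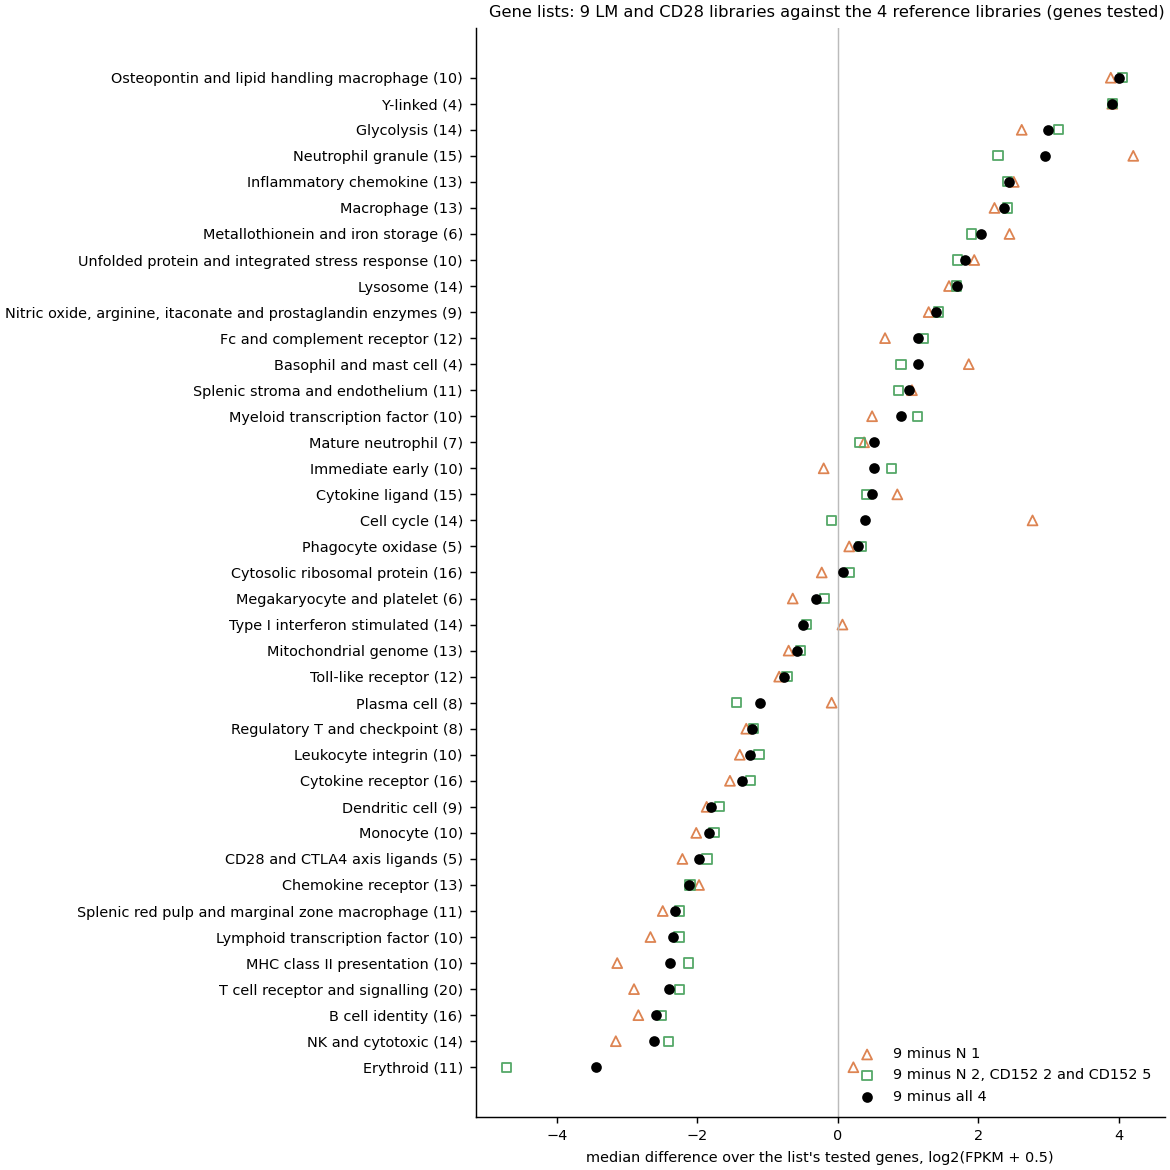
Median difference of each gene list, in log2(FPKM + 0.5), for the 9 minus all 4 (dots), minus N 1 (triangles) and minus the other 3 of the 4 (squares), with the number of genes tested in parentheses. The T cell list lay at -2.41 against all 4, at -2.90 against N 1 and at -2.26 against the other 3, while the cell cycle list lay at 2.77 against N 1 and at -0.09 against the other 3.

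Macrophage genes were split between a large part that was high in the 9 and a part that was low. Of 13 genes, 9 lay above the 4, 3 below and 1 overlapped, and 7 were higher in the labelled contrast. The summed FPKM of this list was 421 to 485 in the 4, 2382 to 2594 in the 9 and 3391 to 3772 in the other 5. Its high sum was thus not particular to the 9. Msr1, a scavenger receptor, was at 1.14, 0.773, 0.946 and 0.857 FPKM in the 4 and between 111 and 132 in the 9 (labelled contrast 4.11 ± 0.82, limma adjusted p = 0.00076). Cd14, a coreceptor for bacterial lipopolysaccharide, was at 4.69 to 5.76 FPKM and 149 to 169, and Cd63, a membrane protein of late endosomes, at 5.26 to 5.98 and 136 to 154. Cd68, a lysosomal glycoprotein of macrophages, was at 30.9 to 34.4 FPKM in the 4 and 353 to 402 in the 9. Lyz1 and Lyz2, near-identical lysozyme genes whose reads can be confused, were at 1.32 to 2.47 and 267 to 307 FPKM in the 4 and at 237 to 269 and 1386 to 1491 in the 9.

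The 3 macrophage genes below the 4 were receptors of resident macrophages. Mrc1, the mannose receptor, was at 17.4, 18.8, 18.6 and 17.8 FPKM in the 4 and between 2.01 and 4.09 in the 9. Mertk, which takes up dying cells, was at 7.37 to 7.99 FPKM and 0.873 to 1.64. Marco, a scavenger receptor of marginal zone macrophages, was at 7.13 to 10.1 FPKM in the 4 and 0.388 to 4.51 in the 9. Csf1r, the receptor for macrophage colony-stimulating factor, lay above the 4 by 0.74 and was higher still in the other 5 libraries, at 177 to 193 FPKM against 69.1 to 74.0 in the 9.

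Genes of macrophages that handle lipid included several of the largest differences. Of the 10 genes tested from a list of 11, 9 lay above the 4 and 1 below, with a median of 4.01, and 8 were higher in the labelled contrast. Gpnmb, a glycoprotein of lysosome-rich macrophages, was at 0.166, 0.0134, 0.0588 and 0.0357 FPKM in the 4 and between 43.2 and 60.4 in the 9. Trem2, a lipid-sensing receptor, was at 0.0193 to 0.0458 FPKM in the 4 and 41.2 to 52.0 in the 9. It was not called in the labelled contrast (2.97 ± 1.25, limma adjusted p = 0.065), and it was at 62.6 to 70.8 FPKM in the other 5. Lpl, lipoprotein lipase, was at 3.67 to 7.86 and 138 to 281 FPKM, and Cd36, a fatty acid and scavenger receptor, at 24.3 to 44.6 and 116 to 129 (labelled contrast 1.87 ± 0.11, adjusted p = 2.7e-09). Apoe, which carries lipid out of macrophages, was the exception, at 152, 144, 132 and 121 FPKM in the 4 and between 21.8 and 77.2 in the 9. Apoc2, the member not tested, was at 0.054 to 0.592 FPKM in the 9.

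Genes that mark the macrophages resident in the spleen were mostly low in the 9. Of 11 genes tested, 8 lay below the 4, 2 above and 1 overlapped, with a median of -2.32. Slc40a1, the iron exporter ferroportin, was at 71.98, 73.6, 72.1 and 71.6 FPKM in the 4 and between 5.86 and 11.4 in the 9. Spic, the transcription factor that red pulp macrophages require, was at 15.4 to 22.9 FPKM and 2.28 to 6.14. C1qa, a complement chain, was at 61.2 to 68.9 FPKM in the 4 and 8.89 to 20.0 in the 9, and Axl, a receptor for dying cells, at 33.2 to 37.1 and 3.21 to 7.94. Hmox1, which breaks down heme, ran the other way, at 130, 138, 125 and 122 FPKM in the 4 and between 264 and 284 in the 9 (labelled contrast 1.57 ± 0.18, limma adjusted p = 3.9e-06). So did Siglec1, a receptor of metallophilic macrophages, at 1.98 to 3.02 and 6.78 to 7.64 (1.75 ± 0.15, adjusted p = 1.7e-07). Of 10 monocyte genes, 7 lay below the 4, and Cx3cr1, a chemokine receptor of patrolling monocytes, was the 1 above, at 3.68 to 5.30 FPKM in the 4, 10.2 to 11.4 in the 9 and 54.3 to 61.4 in the other 5.

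Promoters of the genes at both ends are shown for Spp1 and Saa3, high in the 9, and for the markers Cd79a and Cd3e, high in the 4. Each is the 200 bases before the transcription start listed by RefSeq for GRCm38.p6, read in the direction of the gene: Spp1 at chr5:104434911-104435110 on the plus strand, Saa3 at chr7:46715677-46715876 on the minus strand, Cd79a at chr7:24897297-24897496 on the plus strand and Cd3e at chr9:45009612-45009811 on the minus strand. Of the RefSeq starts of each gene, the nearest to the start in the deposited table was taken. It lay 7, 0, 116 and 21 bases away. Capitals mark matches to 6 motifs searched on both strands.
Spp1: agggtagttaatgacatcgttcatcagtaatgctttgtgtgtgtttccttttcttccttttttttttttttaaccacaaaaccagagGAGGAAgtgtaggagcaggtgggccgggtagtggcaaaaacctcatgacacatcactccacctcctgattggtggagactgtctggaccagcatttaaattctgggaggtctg
Saa3: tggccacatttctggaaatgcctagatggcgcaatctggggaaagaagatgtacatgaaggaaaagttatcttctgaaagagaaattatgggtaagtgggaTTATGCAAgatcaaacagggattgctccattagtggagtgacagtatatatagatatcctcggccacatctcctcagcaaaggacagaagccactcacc
Cd79a: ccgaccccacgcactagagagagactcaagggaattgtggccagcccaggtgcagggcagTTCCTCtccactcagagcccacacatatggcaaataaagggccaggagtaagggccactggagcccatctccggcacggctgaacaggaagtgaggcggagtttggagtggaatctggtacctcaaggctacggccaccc
Cd3e: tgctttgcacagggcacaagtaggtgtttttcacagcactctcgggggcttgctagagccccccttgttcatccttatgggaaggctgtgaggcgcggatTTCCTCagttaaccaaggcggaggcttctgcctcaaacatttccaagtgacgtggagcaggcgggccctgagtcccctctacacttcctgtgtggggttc
For the TATA box the letters TATAAA were searched, and for the AP-1 factors TGANTCA, where N is any base. The letters for PU.1, a factor of myeloid and B cells, were GAGGAA, and those for the C/EBP factors of myeloid cells and acute-phase genes were TTGCNNAA. The octamer of B cell promoters was searched as ATTTGCAT and the site of EBF, a B cell factor, as CCCNNGGG. GAGGAA or its reverse complement was found before Spp1, Cd79a and Cd3e, and lay in 19.0% of all 32851 RefSeq promoters of this length. The C/EBP motif was found before Saa3 and lay in 7.47% of all. The other 4 motifs, which 1.38% to 9.96% of promoters held, had 0 matches in the 4 windows. The letters of GAGGAA thus stood before genes of both directions, and a match is a description of these windows only.

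Neutrophil granule genes were among the groups that were high in the 9 and low in both other sets. Of 15 genes, 13 lay above the 4 and 2 overlapped, with a median difference of 2.95, and 14 were higher in the labelled contrast. N 1 was lower than the other 3 of the 4: the median was 4.21 against N 1 and 2.28 against the other 3. Ngp, a protein of secondary granules, was at 2.88 FPKM in N 1, 78.3 in N 2, 73.7 in CD152 2 and 74.2 in CD152 5, and between 276 and 537 in the 9 with a median of 405 (labelled contrast 4.55 ± 0.60, limma adjusted p = 1.5e-05). Prtn3, proteinase 3 of primary granules, was at 0.0721, 1.98, 2.44 and 1.38 FPKM in the 4 and between 15.9 and 23.8 in the 9. Ctsg, cathepsin G, was at 0.0509 to 1.19 FPKM and 7.56 to 15.6, and Camp, the cathelicidin peptide, at 0.813 to 17.0 and 56.6 to 101. The other 5 libraries lay at or below 9.46 FPKM for Camp and 26.4 for Ngp.

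Genes of later neutrophil stages were mixed against the 4, while those called in the labelled contrast were all higher. Mmp9, a tertiary granule protease, overlapped, at 15.0, 9.77, 8.31 and 9.30 FPKM in the 4 and between 5.79 and 11.2 in the 9, as did Chil3, a chitinase-like protein that was called higher in the labelled contrast (2.25 ± 0.49, limma adjusted p = 0.0016). Csf3r, the receptor for granulocyte colony-stimulating factor, was at 27.6, 24.2, 23.4 and 23.2 FPKM in the 4 and between 5.08 and 8.46 in the 9. Cxcr2, the chemokine receptor of circulating neutrophils, was at 7.77 to 8.90 and 2.26 to 3.75. Ly6g, the common surface marker of mouse neutrophils, lay above the 4, at 0.769 FPKM in N 1, 2.56 to 3.01 in the other 3 and 8.84 to 17.5 in the 9. Of the 7 genes of the later stages 3 lay above, 2 below and 2 overlapped, with a median of 0.52, and the labelled contrast called 4 higher and 0 lower, with a median of 1.54. The basophil proteases Mcpt8 and Prss34 lay above the 4, at 0.470 to 2.40 and 0.270 to 1.20 FPKM in the 4 and at 4.92 to 11.7 and 4.21 to 7.76 in the 9, while Cpa3 of mast cells and basophils overlapped. Gata2, a transcription factor of these cells and of blood progenitors, lay below, at 1.015 to 1.639 FPKM and 0.285 to 0.944. Of the 4 genes of this list tested, 2 thus lay above, 1 below and 1 overlapped, and the labelled contrast called 3 higher and 0 lower.

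Inflammatory chemokines were mostly high in the 9. Of 13 genes tested from a list of 18, 8 lay above the 4, 1 below and 4 overlapped, and in the labelled contrast 7 were higher and 1 lower. Ccl3 and Ccl4, which attract monocytes and T cells, were at 6.06 to 11.1 and 4.31 to 4.76 FPKM in the 4 and at 600 to 696 and 146 to 171 in the 9. Ccl9, a myeloid chemokine, was at 3.66 to 4.01 and 144 to 164 FPKM, and Ccl2, which recruits monocytes, was at 0 to 0.189 and 7.28 to 10.1. Ccl3 was called at 4.37 ± 0.67 (limma adjusted p = 6.7e-05) and Ccl4 at 4.06 ± 0.33 (adjusted p = 1.1e-07). Ccl6 was the 1 member below, at 37.9, 29.9, 27.6 and 25.9 FPKM in the 4 and between 5.93 and 8.97 in the 9. Cxcl10, an interferon-induced chemokine, overlapped the 4 and was the 1 lower call (-0.60 ± 0.20, adjusted p = 0.024).

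Chemokine receptors were mostly low in the 9. Of 13 chemokine receptors, 11 lay below the 4, 1 above and 1 overlapped, with a median of -2.12. In the labelled contrast limma called 0, and 0 had an unadjusted p under 0.05. Cxcr5, which guides B cells into follicles, was at 58.4 to 77.4 FPKM in the 4 and 7.52 to 11.5 in the 9. Cxcr3, a receptor of effector T cells, was at 10.96 to 11.7 FPKM in the 4 and 1.08 to 2.08 in the 9. Ccr1 overlapped, at 4.71 to 6.93 and 3.06 to 5.19.

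Cytokine genes divided by member. Of 15 tested from a list of 23, 7 lay above the 4, 5 below and 3 overlapped, and 8 were higher in the labelled contrast. Il1rn, the antagonist of the interleukin 1 receptor, was at 3.20, 2.38, 1.95 and 3.04 FPKM in the 4 and between 149 and 177 in the 9 (5.07 ± 0.25, limma adjusted p = 4.2e-10), while Il1b itself lay below, at 34.4 to 51.6 and 9.88 to 18.4. Il10, an inhibitory cytokine, was at 0.501, 0.417, 0.454 and 0.356 FPKM in the 4, between 15.9 and 18.4 in the 9 and between 0.170 and 0.295 in the other 5. Tnf was at 3.98 to 4.73 and 27.8 to 32.5 FPKM. Il12a, a chain of interleukin 12, was at 4.93 to 8.20 FPKM in the 4 and 1.04 to 2.54 in the 9, and Ifng, the interferon of T and natural killer cells, at 2.44 to 3.27 and 0.734 to 1.81. Csf3, granulocyte colony-stimulating factor, was at or below 0.0669 FPKM in the 4 and between 2.92 and 4.04 in the 9 (2.91 ± 0.08, adjusted p = 2.7e-13).

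Cytokine receptors were mostly low. Of 16 tested 11 lay below the 4, 2 above and 3 overlapped. Il2rb, shared by the receptors for interleukins 2 and 15, was at 30.9 to 49.7 FPKM in the 4 and 3.22 to 5.07 in the 9, and Il21r at 23.4 to 57.5 and 4.25 to 7.42. The 2 above were Csf2ra, a chain of the GM-CSF receptor, at 8.89 to 15.6 and 22.9 to 26.7 FPKM, and Tnfrsf1a, the main receptor for TNF, at 11.1 to 13.9 and 22.2 to 25.7. The labelled contrast called 5 of the 16 higher and 5 lower, beside 17.6% and 27.0% of all genes.

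Pattern recognition receptors had members on both sides of the 4. Of 12 Toll-like receptor genes tested, 8 lay below the 4, 2 above and 2 overlapped. In the labelled contrast limma called 7 of them lower and 1 higher, beside 27.0% and 17.6% of all genes. The summed FPKM of this list was 203 to 298 in the 4, 143 to 148 in the 9 and 217 to 224 in the other 5. The sum was thus lower in the 9 than in either other set. Tlr9, which senses bacterial DNA in B cells and plasmacytoid dendritic cells, was at 30.03, 15.5, 15.4 and 15.8 FPKM in the 4 and between 2.92 and 3.97 in the 9, and Tlr1 at 30.3 to 38.0 and 6.74 to 8.99. Tlr2 was at 3.97 to 4.85 FPKM in the 4 and 11.8 to 12.9 in the 9. Tlr4, the receptor for lipopolysaccharide, overlapped, at 5.68 to 6.18 and 6.16 to 6.99. Of 12 Fc and complement genes 8 lay above, 1 below and 3 overlapped. Fcgr1, the high-affinity receptor for IgG, was at 1.47 to 1.80 and 18.6 to 21.7 FPKM (2.17 ± 0.38, limma adjusted p = 0.00026), and C3ar1, a complement receptor, at 0.186 to 0.246 and 11.03 to 12.52. Fcgr2b, the inhibitory IgG receptor, lay below, at 20.7 to 35.4 and 10.6 to 15.9.

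Enzymes that make inflammatory mediators had large differences. Ptgs2, the inducible enzyme of prostaglandin synthesis, was at 3.94 FPKM in N 1, 0.856 in N 2, 1.26 in CD152 2 and 1.22 in CD152 5, and between 88.3 and 103 in the 9 (4.61 ± 0.37, limma adjusted p = 8.8e-08). Acod1, which makes itaconate, was at 0.212 to 0.528 FPKM in the 4 and 31.5 to 37.5 in the 9, and Nos2, the inducible nitric oxide synthase, at 0.0607 to 0.154 and 19.6 to 21.9. Each of these lay between 2.22 and 6.78 FPKM in the other 5. Arg1, the arginase of alternatively activated macrophages, had a mean too low for the test and was at 0.457 to 0.957 FPKM in the 9. Ass1, which regenerates arginine, lay below, at 12.7 to 20.1 and 4.397 to 8.26. Of 9 genes tested 6 lay above, 1 below and 2 overlapped. Of 5 subunits of the phagocyte oxidase 2 lay above. Cybb, its catalytic subunit, was at 58.5 to 65.5 FPKM in the 4 and 134 to 150 in the 9. The summed FPKM of these subunits was 278.1 to 364.0 in the 4, 420.8 to 459.3 in the 9 and 474.5 to 510.9 in the other 5.

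**Figure D4:**
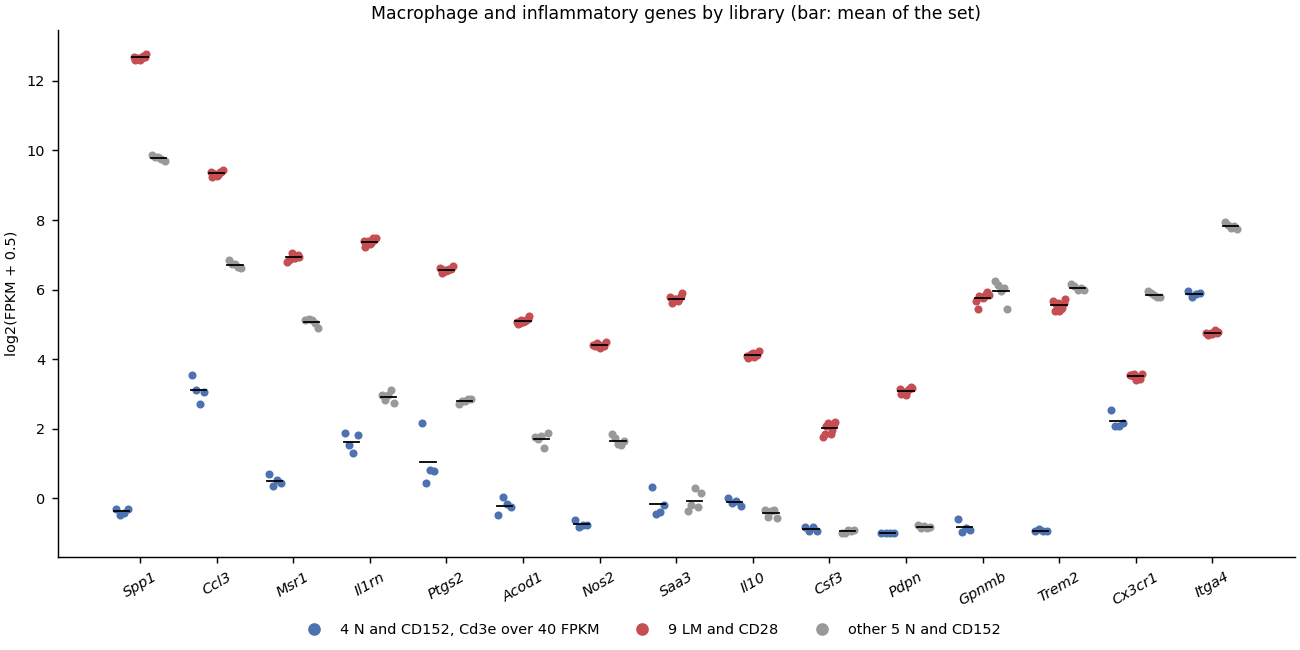
log2(FPKM + 0.5) of 15 macrophage and inflammatory genes in each library, by set, with a bar at the mean of each set. Spp1 reached 6966 FPKM in the 9, and Saa3, Il10, Csf3 and Pdpn were low in both the 4 and the other 5.

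Lysosomal and metabolic genes of phagocytes were high. Of 14 lysosomal genes 12 lay above the 4, 1 below and 1 overlapped, with a median of 1.70. In the labelled contrast 9 were higher. Their summed FPKM was 793 to 884 in the 4, 2395 to 2599 in the 9 and 1682 to 1799 in the other 5. Ctsl, cathepsin L, was at 6.42, 10.8, 9.46 and 10.1 FPKM in the 4 and between 282 and 322 in the 9, and Ctsd, cathepsin D, at 112 to 134 and 616 to 688. Acp5, an acid phosphatase of osteoclasts and resident macrophages, was the 1 below, at 60.7 to 79.5 and 11.6 to 18.7. All 14 genes of glucose uptake and glycolysis lay above, with a median of 2.995, and 9 were higher in the labelled contrast. The summed FPKM of this list was 571 to 764 in the 4, 5300 to 6512 in the 9 and 5530 to 6367 in the other 5. Its high level was thus not particular to the 9. Pgk1, phosphoglycerate kinase, was at 51.0, 48.4, 42.1 and 46.8 FPKM in the 4 and between 1042 and 1197 in the 9 (2.49 ± 0.74, limma adjusted p = 0.012). Pkm, pyruvate kinase, was at 80.8 to 116 and 1179 to 1340, and Slc2a1, the glucose transporter GLUT1, at 8.26 to 11.8 and 94.2 to 106. Pkm was higher still in the other 5, at 1609 to 1800 FPKM, and was not called (1.65 ± 0.76, adjusted p = 0.091).

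Ribosomal and mitochondrial genes overlapped more. All 16 ribosomal protein genes overlapped between the 9 and the 4, with a median of 0.07, which was -0.23 against N 1 and 0.17 against the other 3. Rpl4 was at 793 to 1033 FPKM in the 4 and 1002 to 1055 in the 9. Rps18 was at 983 FPKM in N 1, at 78.2 to 88.7 in the other 3 and 97.8 to 109 in the 9. Of 13 protein-coding genes of the mitochondrial genome 6 lay below, 1 above and 6 overlapped, and 9 were lower in the labelled contrast. mt-Cytb, a subunit of complex III, was at 2345, 2288, 2165 and 2148 FPKM in the 4 and between 874 and 1841 in the 9 (-0.94 ± 0.10, limma adjusted p = 1.7e-06), whereas mt-Co1, of complex IV, was at 6126 to 6708 and 8708 to 10510.

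Stress, metal and iron genes were mostly high in the 9. Of 10 genes of the unfolded protein and integrated stress responses, 8 lay above the 4 and 8 were higher in the labelled contrast. Atf3, a stress-induced transcription factor, was at 3.38, 1.31, 1.27 and 0.966 FPKM in the 4 and between 64.0 and 74.2 in the 9. Ddit3, the CHOP factor, was at 9.87 to 10.9 FPKM in the 4, 56.9 to 66.2 in the 9 and 6.49 to 10.7 in the other 5 (2.64 ± 0.10, limma adjusted p = 1.3e-11). Asns, asparagine synthetase, was at 0.678 FPKM in N 1, at 18.7 to 21.3 in the other 3 and 66.0 to 74.7 in the 9. Herpud1, of endoplasmic reticulum degradation, lay below, at 33.9 to 45.9 and 22.4 to 25.4. The metallothionein Mt2 was at 0.736 FPKM in N 1, 7.88 to 10.6 in the other 3 and 262 to 304 in the 9, and Fth1, the heavy chain of ferritin, at 612 to 973 in the 4 and 3505 to 3891 in the 9. Of 10 immediate early genes 2 lay above the 4, 2 below and 6 overlapped, with a median of 0.51 that was -0.20 against N 1 alone. Against the other 3 of the 4, 7 lay above and 2 below, and the labelled contrast called 7 higher and 0 lower. Ier3, an early response gene, stood out, at 2.29 to 3.16 and 73.2 to 85.0 FPKM.

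Genes stimulated by type I interferon went both ways. Of 14 genes 6 lay above the 4, 5 below and 3 overlapped, with a median of -0.49 that became 0.26 when genes under a mean of 2 FPKM were left out. Over all genes 32.3% lay above and 37.5% below. Irf7, a transcription factor of interferon production, was at 22.3, 24.4, 21.7 and 22.1 FPKM in the 4 and between 52.6 and 76.1 in the 9 (1.43 ± 0.06, limma adjusted p = 7.9e-11). Oas1a, an antiviral enzyme, was at 5.22 to 6.85 and 25.9 to 30.4. Ifit1, an antiviral RNA-binding protein, was at 4.45 to 4.73 FPKM in the 4 and 0.575 to 1.07 in the 9. Rsad2, viperin, was at 4.19 FPKM in N 1, at 120 to 133 in the other 3 and 2.91 to 8.33 in the 9, so its difference rested on the other 3.

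Integrins and myeloid transcription factors were mixed as well. Of 10 integrin chains 6 lay below, 2 above and 2 overlapped. Itga5, the fibronectin receptor chain, was at 1.46 to 2.09 FPKM in the 4 and 42.6 to 48.1 in the 9 (3.20 ± 0.41, limma adjusted p = 1.3e-05), and Itgal, the LFA-1 chain of lymphocytes, at 53.1 to 83.2 and 11.4 to 14.5. Itga4 was at 55.2 to 61.9 FPKM in the 4, 25.6 to 28.3 in the 9 and 215 to 247 in the other 5. Of 10 myeloid factors 6 lay above, 3 below and 1 overlapped. Spi1, the PU.1 factor, was at 34.6, 27.2, 27.7 and 23.1 FPKM in the 4 and between 69.8 and 75.8 in the 9, Mitf, a factor of lysosomal genes in macrophages and osteoclasts, at 0.227 to 0.850 and 10.1 to 15.4, and Irf8, of monocytes, dendritic cells and B cells, at 71.3 to 84.9 and 31.6 to 39.0.

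Red cell precursors and dividing cells depended on N 1. All 11 erythroid genes tested overlapped between the 9 and the 4. Their median difference was -3.44 against all 4, 0.22 against N 1 and -4.71 against the other 3. Hba-a1, an alpha globin gene, was at 759 FPKM in N 1, 24290 in N 2, 20150 in CD152 2 and 23850 in CD152 5, and between 360 and 2153 in the 9. The alpha and beta globin copies are near-identical, so their split is uncertain. Alas2, the first enzyme of heme synthesis in red cells, was at 16.6 FPKM in N 1, at 534 to 600 in the other 3 and 9.03 to 30.2 in the 9. Of 14 cell cycle genes 5 lay above and 9 overlapped, with a median of 2.77 against N 1 and -0.09 against the other 3. Mki67, a marker of dividing cells, was at 5.18 FPKM in N 1, at 112 to 122 in the other 3 and 65.3 to 72.3 in the 9. In the labelled contrast limma called 0 genes of either list, with 0 erythroid genes and 1 cell cycle gene at an unadjusted p under 0.05.

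Platelet, stromal and endothelial genes mostly overlapped or were lower against the 4. All 6 platelet genes tested overlapped the 4, and the 9 spanned a wide range, as in Pf4, platelet factor 4, at 3.66 to 6.23 FPKM in the 4 and 1.37 to 16.8 in the 9. Of 11 stromal and endothelial genes tested, 4 lay below, 1 above and 6 overlapped, and the labelled contrast called 6 higher and 0 lower, with a median of 1.48. The 6 included Ccl21a (3.29 ± 0.59, limma adjusted p = 0.00029) and Dcn, decorin (1.82 ± 0.26), and their levels in the 9 ranged widely. The 4 below were endothelial, among them Stab2 of sinus lining cells, at 3.81 to 4.35 and 0.128 to 0.407, and Pecam1, at 23.0 to 32.5 and 2.86 to 5.97. Pdpn, a membrane protein of stromal cells that activated macrophages can also make, was the 1 above, at or below 0.00205 FPKM in the 4, between 7.31 and 8.61 in the 9 and between 0.0501 and 0.0833 in the other 5. Stromal Cxcl13, which attracts B cells, overlapped, at 1.12 to 4.12 FPKM in the 4 and 0.124 to 28.0 in the 9. None of 5 melanocyte genes reached the mean needed for the test. Tyr, Dct and Tyrp1 were listed at 0 in all 9, while Pmel was at 1.05 to 1.97 FPKM in the 4 and 0.191 to 0.370 in the 9.

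Among genes whose 9 and 4 values did not overlap, the largest differences went beyond the lists. After Spp1 at 13.05 came Fxyd2, a regulator of the sodium pump, at 0.148, 0.511, 0.423 and 0.293 FPKM in the 4 and between 171 and 208 in the 9, and Mycn, a transcription factor of the MYC family, at 0.0427 to 0.143 and 91.5 to 103. Dab2, an endocytic adaptor, was at 0.0382 to 0.459 and 76.9 to 88.8, and Fnbp1l, a membrane-bending protein, at 0.113 to 0.219 and 58.6 to 68.8. Cdkn1a, the p21 inhibitor of the cell cycle, was at 1.30 to 1.79 FPKM in the 4 and 136 to 151 in the 9. Each of these 5 was between 28.6 and 448 FPKM in the other 5 libraries, and Fxyd2 (3.35 ± 1.60, limma adjusted p = 0.10) and Mycn (3.35 ± 1.45, adjusted p = 0.072) were not called in the labelled contrast. At the lower end, Tent5c, a poly(A) polymerase of plasma and red cells, was at 12.03 FPKM in N 1, at 92.7 to 107 in the other 3 and 1.42 to 7.03 in the 9. Nxpe2, Car1, Slc43a1 and Tinagl1 shared that gap between N 1 and the other 3, as with Car1, a carbonic anhydrase of red cells, at 4.13 FPKM, 57.0 to 65.0 and 1.82 to 3.75. Il16, a cytokine of lymphocytes, had none, at 59.2, 58.7, 57.4 and 47.2 FPKM in the 4 and 3.40 to 6.47 in the 9, and Ablim1, an actin-binding protein, was at 52.5 to 103 and 2.62 to 10.9.

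The genes with the smallest p in the labelled contrast were low in both the 4 and the other 5. Urah, an enzyme of urate breakdown, was listed at 0 in each of the 4 and was at or below 0.0175 FPKM in the other 5 and between 23.0 and 26.7 in the 9 (5.66 ± 0.05, limma adjusted p = 2.0e-20). Lipg, endothelial lipase, was at 0.0218 to 0.0679 and 11.4 to 13.3 FPKM. Saa3, an acute-phase protein made by macrophages and stromal cells, was at 0.759, 0.237, 0.268 and 0.383 FPKM in the 4, between 48.3 and 58.8 in the 9 and between 0.277 and 0.733 in the other 5 (5.86 ± 0.11, adjusted p = 1.4e-15). Wfdc17, which activated macrophages secrete, was at 4.21 to 5.63 and 169 to 194 FPKM, and Timp1, an inhibitor of matrix proteases, at 0.0473 to 0.331 and 7.08 to 9.07. Il10 (4.36 ± 0.08, adjusted p = 3.0e-16), Pdpn (3.99 ± 0.07, adjusted p = 2.2e-16) and Csf3, given above, complete these 8. Outside the 9, Urah and Pdpn lay near the lowest value that the log scale allows, as did Lipg and Csf3 in the 4. The constant added before the log leaves little spread there, and these genes passed the filter on mean FPKM through the 9. The size of their p thus rests in part on that floor and filter. A gene near 0 outside the 9 passes the filter only if the 9 are high. The direction of such a gap was therefore fixed by the filter, while its size in FPKM does not rest on the added constant.

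The lower genes with the smallest p had smaller differences than the higher ones. Ddx3x, an X-linked RNA helicase with the Y-linked copy Ddx3y, was at 104, 94.7, 94.8 and 93.5 FPKM in the 4, between 42.4 and 50.5 in the 9 and between 90.6 and 93.7 in the other 5 (-1.04 ± 0.04, limma adjusted p = 3.8e-11). Srsf3 and Srsf2, splicing factors, were at 82.2 to 86.8 and 105 to 128 FPKM in the 4 and at 39.0 to 45.8 and 51.6 to 61.5 in the 9. Thap2, Uri1, Ap5b1 and Imp4 shared this pattern with differences between -0.79 and -1.61. Mpeg1, perforin 2 of macrophages, was at 78.1, 77.7, 73.0 and 77.3 FPKM in the 4, between 43.6 and 48.3 in the 9 and between 74.4 and 76.8 in the other 5.

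Within the 9, CD28 and LM were tested against each other with limma on these libraries alone. The test called 48 of 11455 genes, 19 higher in CD28 (0.166%) and 29 lower (0.253%), with 17 of the lower over 2-fold, and 1280 genes had an unadjusted p under 0.05. A fit of all 18 libraries called 0, with 133 genes at an unadjusted p under 0.05. After rescaling to the same sum 72 genes were called, of which 63.9% were higher in place of 39.6%. The number called was 20 without LM 1, 8 without LM 2 and 4 without LM 3. It was 18 without CD28 1, 112 without CD28 2 and 32 without CD28 3. It was 22 without CD28 4, 7 without CD28 5 and 55 without CD28 6. Which genes pass thus depends on single libraries.

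Some granule genes were called higher and some red cell genes lower in CD28. Of 15 neutrophil granule genes 7 were called higher, with a median log2 fold change of 0.65 over the list against -0.00 over all genes. S100a9, which binds calcium and is abundant in neutrophils, was at 637, 715 and 629 FPKM in LM 1 to 3 and between 889 and 1192 in CD28 (0.67 ± 0.10, limma adjusted p = 0.022). Retnlg, of mature neutrophils, was at 25.9, 29.0 and 24.7 FPKM in LM and between 38.0 and 56.1 in CD28 (0.83 ± 0.12, adjusted p = 0.021), and Prss34 of basophils at 4.21, 4.72 and 4.75 and between 6.78 and 7.76 (0.60 ± 0.06, adjusted p = 0.012). Sass6 of the centriole and AA467197 were higher too, by 0.54 and 0.74.

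Hba-a1 was at 1404, 2153 and 1566 FPKM in LM 1 to 3 and between 360 and 740 in CD28 (-1.73 ± 0.23, limma adjusted p = 0.021), and 5 of 11 erythroid genes were called lower. Without LM 3 the test called 4 genes higher and 0 lower, so none of the lower calls was left. Alas2 was at 21.6, 30.2 and 24.01 FPKM in LM and 9.03 to 13.5 in CD28 (-1.16 ± 0.14, adjusted p = 0.021). Of 6 platelet genes 3 were called lower, among them Pf4, at 11.3, 16.8 and 14.1 FPKM in LM and 1.37 to 5.31 in CD28 (-2.10 ± 0.34, adjusted p = 0.036). Esam and Gng11, of endothelial cells and platelets, Ctla2a, a protease inhibitor, Glrx5, of iron-sulfur assembly, Ube2l6, Luc7l3 and Rsad2 were lower as well, with log2 fold changes between -1.58 (Gng11) and -0.30 (Glrx5). Stromal genes had lower values in CD28 too: Ccl21a was at 16.1, 27.1 and 20.1 FPKM in LM, was listed at 0 in CD28 1 and CD28 4 and reached 9.95 in CD28 2, and Cxcl13 was at 16.8 to 28.0 in LM and 0.124 to 15.6 in CD28. Mitochondrial transcripts had lower values in CD28 as well: the mean level of the 13 genes of the mitochondrial genome was 10.44 to 10.78 in LM and 10.04 to 10.34 in CD28 in log2(FPKM + 0.5), with a median log2 fold change of -0.36, 0 genes called by limma and 13 at an unadjusted p under 0.05. Neither stromal gene passed (Ccl21a -3.04 ± 0.98, adjusted p = 0.25), and the part of stroma, blood or mitochondrial RNA in the granule, red cell and platelet differences was not tested. Ccl21a has near-identical copies, so its level is uncertain.

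None of the 4 markers was called between CD28 and LM, with limma on the 9 libraries. Spp1 differed by 0.04 ± 0.04 (SE, limma adjusted p = 0.83), Itgam by 0.10 ± 0.03 (adjusted p = 0.21), Cd3e by -0.55 ± 0.14 (adjusted p = 0.16) and Cd79a by -0.09 ± 0.14 (adjusted p = 0.86). Among the 20 T cell, 16 B cell, 13 macrophage and 14 glycolysis genes 0 were called, while 10, 1, 4 and 1 had an unadjusted p under 0.05. The median of the T cell list was -0.25. A p that misses the threshold does not show that both groups had the same level.

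**Figure D5:**
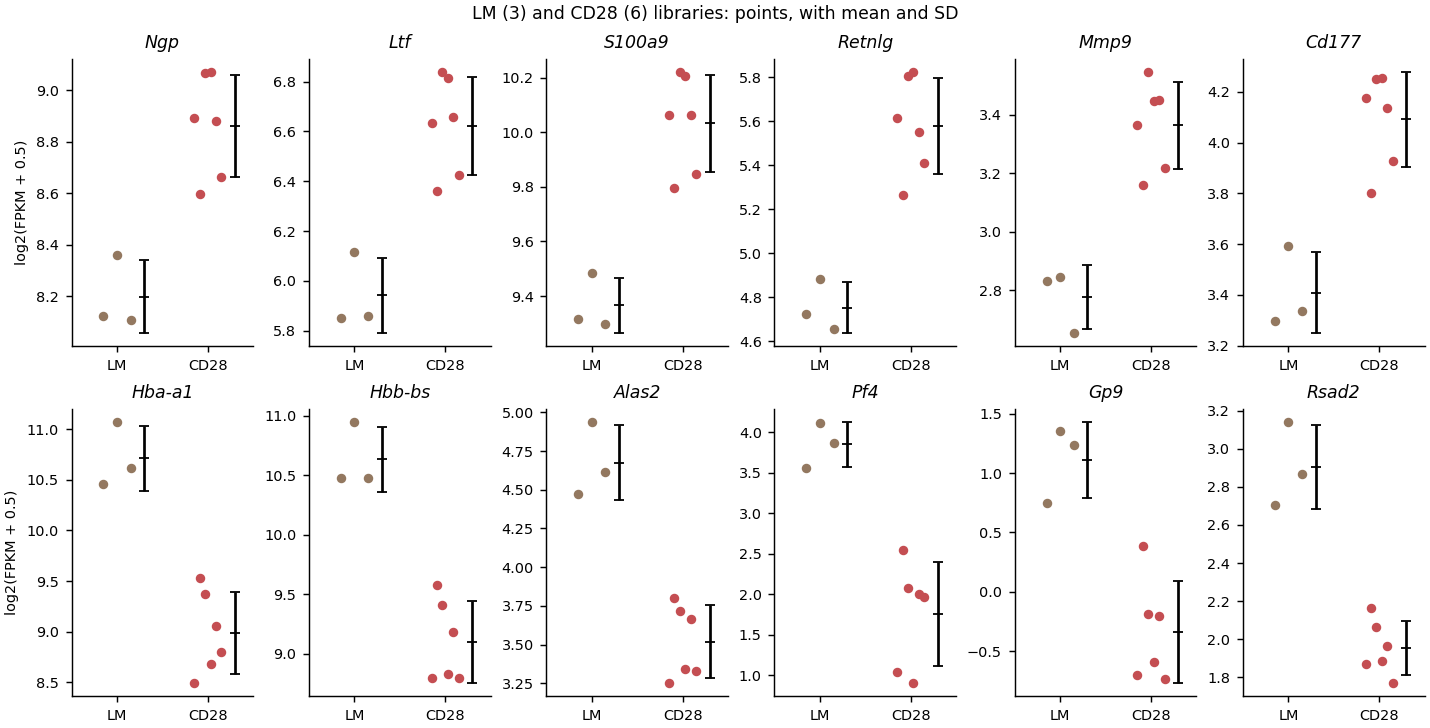
log2(FPKM + 0.5) of 12 genes in the 3 LM and 6 CD28 libraries, with the mean and SD of each group beside the points, on an axis of its own for each gene. Neutrophil genes in the upper row lay higher in CD28, as S100a9 at 889 to 1192 FPKM against 629 to 715. Globin, platelet and Rsad2 transcripts in the lower row lay lower.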

How the data were processed

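RNA-seq of mouse splenocytes was analysed in 18 libraries (N 3, LM 3, CD28 6, CD152 6). The authors deposited 1 gene table per library with FPKM and a mean coverage signal per gene. Aligned bases (5.21 to 7.92 gigabases) were estimated as the most common ratio of coverage to FPKM over genes above 1 FPKM. Deposited TPM values and loci assembled in single libraries were not used. Read counts were not used here, so no counting intervals are given. The submitters' processing notes name mm10 and GATK 4.2. The aligner is not given in the sources used here. Of 47729 reference genes, 47310 had a type in GENCODE M21 and 45179 the same symbol. Of 21697 protein-coding genes, 11455 had a mean of at least 0.5 FPKM over the 18 libraries and were tested as log2(FPKM + 0.5), which understates changes of low genes.

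The 9 LM and CD28 libraries were described against the 4 N and CD152 libraries over 40 FPKM of Cd3e, with no test. limma 3.58.1 (R 4.3.3) tested the labelled contrast over 18 libraries and CD28 against LM over 9, two-sided, with Benjamini-Hochberg adjusted p under 0.05. Both tests were first tested on simulated data with known answers. Tables were handled in Python 3.11.15 with pandas 2.3.3, numpy 2.4.6 and scipy 1.17.1, and plots drawn in matplotlib 3.10.9. Promoters came from RefSeq (GRCm38.p6).

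The members and gene lists were chosen with earlier results of these data known. Named were the markers. From each list up to 4 members with the largest difference between the 9 and the 4 were named. Up to 4 that overlapped or ran against the list were added. Among genes that did not overlap, the 12 largest differences in each direction were named. Then came up to 12 genes of CD28 against LM and 8 per direction of the labelled contrast with the smallest p. The antibody targets, Saa3, Il1rn, Csf3, Ptgs2 and sex-linked genes completed the set. Other list members and the immunoglobulin constant genes were named after their values were seen. Alternatives were the pseudocount, the filter on low values, the scaling of libraries, a replicate block, array weights, the samples in the fit, the choice of reference libraries and leaving out each library. The values of some list members are not reported here.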

Additional observations from a re-analysis of the deposited data

Results flagged for a closer look

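In 6 of 202 pairs of a group with a gene or list, 1 library stood apart from the other 5 of its group by Dixon's criterion, and chance flags about 1 in 20 groups. Values are in log2(FPKM + 0.5). Of the 6, 3 concern CD28 6. Its mean level of the immediate early list was 4.93, against 5.09 to 5.17 in the other CD28 libraries. Its mean level of the enzymes of nitric oxide, arginine, itaconate and prostaglandins was 3.62, against 3.47 to 3.52. Its Nxpe2 level was 0.057, against 0.65 to 0.96. Eif2s3y was at 5.22 in CD28 1, against 5.13 to 5.16. Among the CD152 libraries, Urah was at -0.95 in CD152 6 and at the floor of -1 in the others, and Uri1 was at 4.03 in CD152 5, against 3.87 to 3.91.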

How the results depend on the processing

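The numbers of genes not overlapping between the 9 and the 4, and the number called in the labelled contrast, stayed within 1.5 times of the reported value under every alternative run, the latter between 4314 without N 2 and 7382 without N 3. CD28 against LM, with 48 calls, did not: 10 genes were called with no filter on low values, 78 with array weights (whose estimation stopped before convergence in at least 1 fit), 0 in the fit of all 18 libraries (133 at an unadjusted p under 0.05), and between 4 and 112 when 1 library was left out. The cause was not tested. The limma fit with the replicate number as a block called 0 genes, with 1030 at an unadjusted p under 0.05. Same-numbered LM and CD28 libraries had correlations of their deviations of 0.09, 0.25 and -0.12, and those of other numbers had -0.23 to 0.23. With 3 LM libraries these values cannot tell whether the numbers pair the libraries. The median of the type I interferon list turned from -0.49 to 0.26 with a mean of at least 2 FPKM, where fewer of its genes enter. The median of the cell cycle list changed sign as well, from 0.39 against all 4 to -0.09 without N 1. Beyond the interferon reversal, shifts larger than the spread between libraries occurred under at least 1 alternative. They were seen in 21 of 39 list medians and 96 of 280 single-gene differences between the 9 and the 4. Under at least 1 alternative, 20 of the 115 named genes lost their call in the labelled contrast, and all 24 named genes of CD28 against LM lost theirs. FPKM without read counts leaves the precision of low genes unknown.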
